A study of Mus musculus with 6 samples.

Results

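The complement genes described here are C1qa, C1qb, C1qc, C3, C3ar1, C5ar1, Cfp and Serping1. They are 8 of the 34099 genes counted, each was taken by its symbol, and each matched 1 gene of the deposited matrices. Tumor tissue came from 3 control mice and 3 stress mice, with 1 10x Genomics single-cell library per mouse. All 6 were wild-type male C57BL/6J mice that carried H22 tumors, grown from a murine hepatocellular carcinoma (HCC) line, in the liver. The stress mice had also gone through chronic unpredictable mild stress (CUMS), and the control mice had not. A tumor grown from a transplanted cell line is a limited model of HCC that arises in a liver, because its tumor cells share 1 origin.

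The annotation kept 58794 of 61374 cell barcodes, and the 6 libraries held between 149558935 and 187728350 unique molecular identifiers (UMIs), tags that mark captured RNA molecules. The median cell held between 7166 and 20478 UMIs depending on the library. Any pair of libraries had between 13 and 40 cell barcodes in common. The matrices of the control mice were made with Cell Ranger 9.0.0 and those of the stress mice with 7.1.0, so the version and the stress cannot be told apart here. Levels are given as CPM, the UMIs of a gene divided by all UMIs of the summed cells of a cell type in a mouse and scaled to 1000000.

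Complement is a protein cascade that marks cells, immune complexes and debris for removal. C1q, built from A, B and C chains, starts the classical pathway, and in tissue it is made largely by macrophages. C3 is the protein on which all activation pathways converge, properdin (Cfp) stabilizes the alternative pathway enzyme that cleaves C3, the fragments C3a and C5a signal through the receptors C3ar1 and C5ar1, and C1 inhibitor (Serping1) blocks the proteases bound to C1q. The liver is the main source of circulating complement.

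The genes of the C1q chains lie next to each other on chromosome 4 (GRCm38, GENCODE), all on the minus strand. C1qb spans chr4:136880129-136886187, C1qc spans chr4:136889804-136893065 and C1qa spans chr4:136895917-136898803. They are separated by 3616 and 2851 bases, with 0 annotated genes in between. The other members are scattered, with C3 at chr17:57203970-57228136, C3ar1 at chr6:122847138-122856161, C5ar1 at chr7:16246743-16259540, Cfp at chrX:20925454-20931555 and Serping1 at chr2:84765387-84775444, also on the minus strand. Mir6978 lies inside C3 on the same strand. RefSeq promoter sequences (GRCm38.p6) were found for 6 of the 8 members, and C1qa and Serping1 were not among them. Those of C1qb and C1qc are shown because their transcripts moved together across cell types. They are written 5′ to 3′ on the minus strand, with capitals marking a purine box bound by the myeloid factor PU.1 (GAGGAA, or TTCCTC on the other strand) and a half-site for MAF factors (TGCTGA). The C1qb sequence is chr4:136886201-136886450, and the C1qc sequence is the stretch chr4:136893066-136893164 that lies before the annotated gene.
C1qb: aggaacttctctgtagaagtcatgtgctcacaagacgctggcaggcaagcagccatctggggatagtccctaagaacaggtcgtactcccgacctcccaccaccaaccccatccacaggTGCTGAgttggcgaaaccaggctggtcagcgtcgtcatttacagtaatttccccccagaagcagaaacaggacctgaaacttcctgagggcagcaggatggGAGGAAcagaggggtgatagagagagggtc
C1qc: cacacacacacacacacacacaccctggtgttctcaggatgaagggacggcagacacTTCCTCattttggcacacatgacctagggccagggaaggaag

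Within the 250 bases before each RefSeq start, searched on both strands, GAGGAA was found in 23.3% of 32851 promoters, TGCTGA in 16.1% and the TATA box letters TATAAA in 12.4%. C1qb held GAGGAA from 30 to 25 bases and TGCTGA from 131 to 126 bases before its start. C1qc held GAGGAA on the other strand, from 193 to 188 bases before its start. TGCTGA was also found before the RefSeq starts of C3, C3ar1 and C5ar1, and TATAAA before that of C3ar1. The match of C5ar1, from 17 to 12 bases before its RefSeq start, lies inside the annotated gene. Cfp held 0 matches to these letters. Such matches are common and say nothing of binding.

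Cell types were taken from the authors' annotation. It held 6260 monocytes, 6307 inflammatory myeloid cells, 1556 dendritic cells (DCs), 350 monocytic myeloid-derived suppressor cells (M-MDSCs) and 175 neutrophils. Outside the myeloid types it held 29638 tumor cells, 11433 endothelial cells (ECs), 2490 NK/T cells, 457 B cells and 128 hepatic stellate cells (HSCs). The monocytes form clusters 11, 12 and 13 of the annotation. All 3 carried macrophage genes. Cluster 11 had the highest MHC class II level of the 3 (Cd74 at 6508 CPM on average over the 6 mice), cluster 12 the highest Ly6c2 (569 CPM), a marker of classical monocytes, and cluster 13 the highest Arg1 (2855 CPM) and Spp1 (8007 CPM), which mark tumor-associated macrophages. Cells labelled HSCs carried the collagen genes Col1a1 and Col3a1 at 6914 and 5265 CPM, but Lrat and Reln, which define quiescent stellate cells, only at 13.8 and 6.94 CPM, together with the epithelial gene Krt18 at 417 CPM. Of the M-MDSCs, 62.6% were called doublets.

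In the summed cells, C1q transcripts were highest in monocytes, then in ECs and then in DCs. C1qa, which encodes the A chain, was at 1033, 741 and 636 CPM in the monocytes of control mice 1, 2 and 3 and at 1160, 634 and 591 CPM in those of stress mice 1, 2 and 3. In ECs it was at 162, 255 and 248 CPM in control mice and at 325, 188 and 260 CPM in stress mice. Every mouse had more C1qa in monocytes than in ECs, with means 3.33-fold apart, and the ranges of the 6 mice did not overlap. In DCs it was at 95.6, 57.0 and 41.9 CPM in control mice and at 77.3, 30.2 and 50.4 CPM in stress mice, below the ECs of the same mouse in all 6 mice. As a mean over cells of each cell's own CPM, control mouse 1 had more C1qa in DCs than in ECs, 294 against 230 CPM. Called doublets held many of the C1q UMIs of DCs, which numbered 2030 with them and 766 without. Without called doublets C1qa in DCs was at 142, 58.7 and 64.2 CPM in control mice, compared with 77.1, 14.9 and 30.9 CPM in stress mice, again below the ECs of every mouse. Inflammatory myeloid cells, NK/T cells, M-MDSCs, tumor cells and B cells had means between 1.56 and 5.77 CPM, and the ranges of neighbours in this order overlapped.

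C1qb, the B chain, followed the same order over the leading cell types, with 668 ± 229 CPM in monocytes (SD, n = 6), 181 ± 41.8 CPM in ECs and 60.8 ± 31.1 CPM in DCs. C1qc, the C chain, was at 626 ± 215 CPM in monocytes, but at only 49.7 ± 13.8 CPM in ECs, where its range overlapped that in DCs (42.8 ± 23.3 CPM). As a mean over cells, with called doublets kept, C1qc averaged 118 ± 125 CPM in DCs and 62.0 ± 16.9 CPM in ECs, but the mice differed. In control mice 1 and 3 and stress mouse 1 it was higher in DCs, at 345, 166 and 111 against 64.0, 60.7 and 93.7 CPM. In control mouse 2 and stress mice 2 and 3 it was lower in DCs. C1qb was also higher in DCs in control mouse 1, at 410 against 178 CPM. Monocytes held on average 57.6% of all C1qa UMIs of a mouse and ECs 36.6%, while for C1qc monocytes held 79.9% and ECs 14.2%. In such shares, fewer cells of a type and less RNA per cell cannot be told apart.

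**Figure D1:**
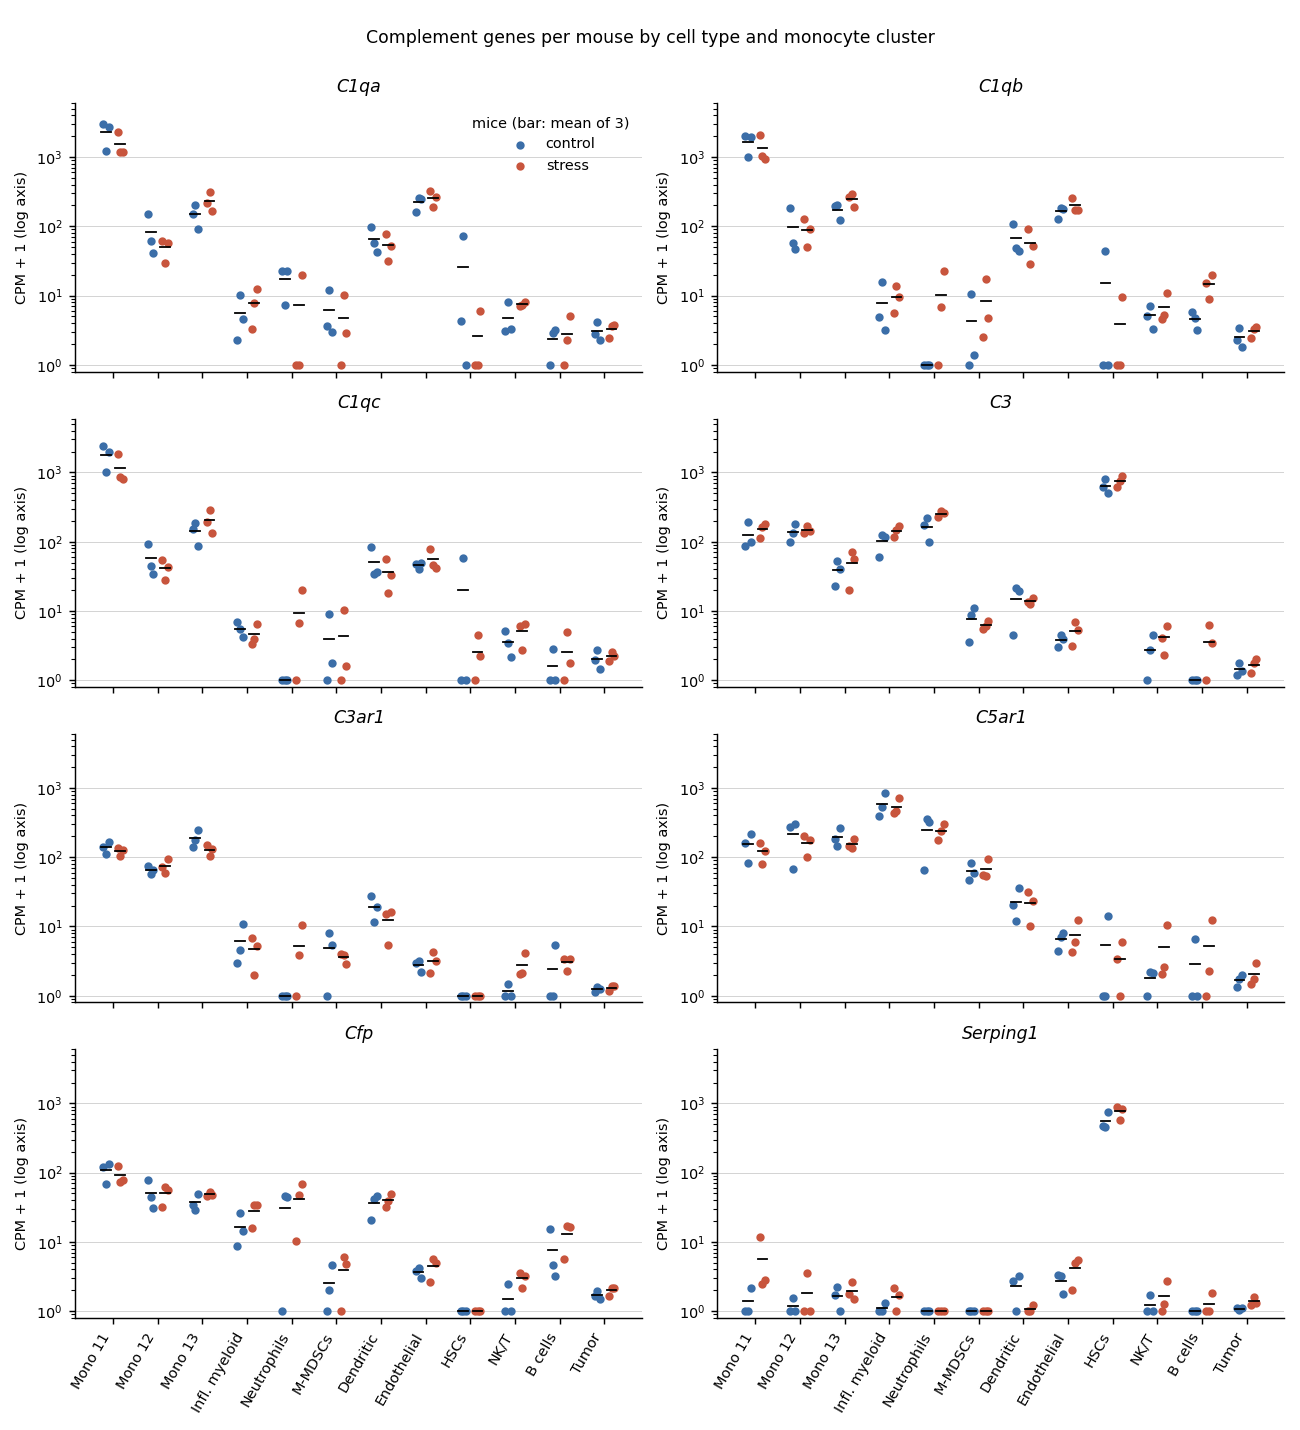
Level of each complement gene (CPM + 1, log axis) in the summed cells of each annotated cell type and monocyte cluster. Each point is a mouse and each bar the mean of 3 mice. C1qa, C1qb and C1qc peaked in monocyte cluster 11, C5ar1 in inflammatory myeloid cells, and C3 and Serping1 in HSCs, which numbered 128 cells in all.

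Within monocytes, C1q was concentrated in cluster 11. C1qa there was at 3037, 1214 and 2674 CPM in control mice 1, 2 and 3 and at 2297, 1184 and 1172 CPM in stress mice 1, 2 and 3. In cluster 12 it was at 149, 59.8 and 39.8 CPM in control mice and at 59.9, 28.4 and 57.3 CPM in stress mice. In cluster 13 it was at 151, 205 and 90.1 CPM in control mice and at 220, 315 and 165 CPM in stress mice. Each of the 6 mice had its highest level in cluster 11, and C1qb and C1qc showed the same. Because the clusters were defined from the same cells, this order is a description and was not tested. Cluster 11 alone held 52.5% of all C1qa UMIs of a mouse on average and 71.8% of all C1qc UMIs.

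Many cells of cluster 11 carried all the chains. A UMI of each of the 3 chains was found in 91.6%, 57.5% and 61.6% of its cells in control mice 1, 2 and 3 and in 86.9%, 57.4% and 54.9% in stress mice. With every cell thinned to 1000 UMIs, the mean share was 40.1% in cluster 11, 1.26% in cluster 12, 3.57% in cluster 13 and 1.0% in ECs. The cells of cluster 11 were not uniform, as 620 of its 2481 cells had a UMI of 0 chains and 1508 had a UMI of all 3. The cells with 0 chains were also shallower in all 6 mice, with a mean of the medians of 5445 UMIs against 6924, and the part of depth in this split was not tested. The 2 sets were compared after their values were seen, and without a test, since the split itself uses C1q. The monocyte gene Ly6c2 averaged 264 CPM in the cells with 0 chains and 86.6 CPM in the cells with 3 chains. The macrophage gene Adgre1 averaged 31.4 and 122 CPM, and C3ar1 84.6 and 139 CPM. Cells with 0 chains are averaged over 5 mice, since control mouse 1 had only 5 such cells.

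The mice differed in the C1q level of cluster 11 in a way that did not follow stress. Control mouse 1, control mouse 3 and stress mouse 1 had C1qa between 2297 and 3037 CPM, and the other 3 mice between 1172 and 1214 CPM. The 6 genes that define Kupffer cells, the resident macrophages of the liver (Clec4f, Timd4, Vsig4, Cd5l, Marco and Folr2), summed to 256, 13.3 and 741 CPM in cluster 11 of control mice 1, 2 and 3 and to 915, 78.5 and 176 CPM in stress mice 1, 2 and 3. The 3 mice with the highest C1qa also had the highest Kupffer sums. They also had the fewest cells in cluster 11, between 107 and 199 against 671 to 716 in the other 3 mice. The median cell of their libraries was deeper, at 16864.5 to 20478 UMIs against 7166 to 9032. In the cells of cluster 11 itself the medians of these sets of mice overlapped. These medians were 5250, 5656 and 7215.5 UMIs in control mice 1, 2 and 3 and 7162, 5774 and 7730.5 UMIs in stress mice. In the cells with all 3 chains, Clec4f was at 51.9, 4.74 and 151 CPM in control mice and at 173, 23.1 and 34.2 CPM in stress mice. In cells with 0 chains it was at 0 in all 5 mice. The parts of Kupffer cells, of cell number and of library depth in the C1q level were not tested.

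**Figure D2:**
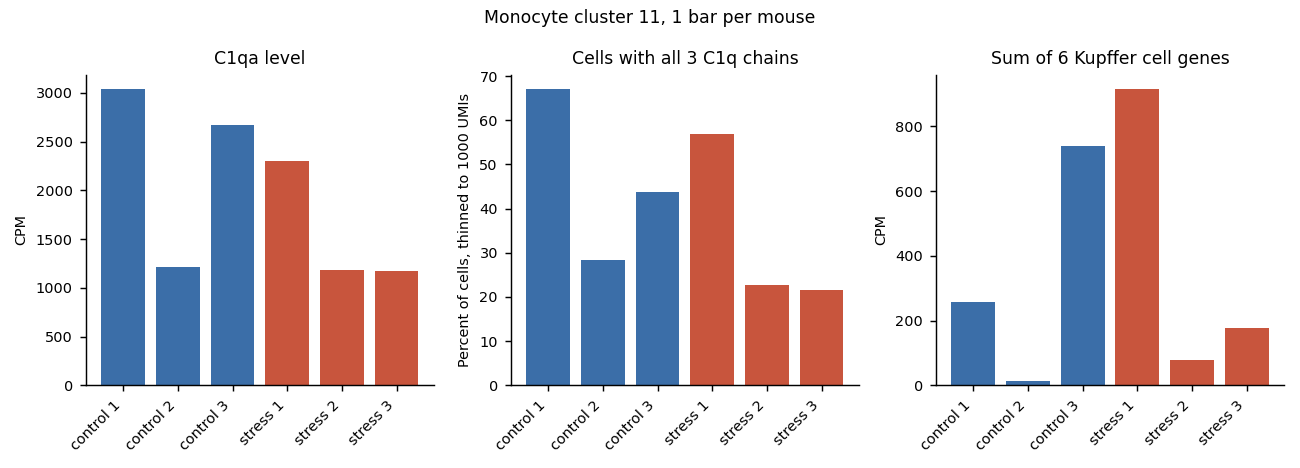
Monocyte cluster 11 in each mouse, with the C1qa level (CPM), the percent of cells with a UMI of all 3 C1q chains after thinning to 1000 UMIs, and the summed level of 6 Kupffer cell genes (CPM). Control mice 1 and 3 and stress mouse 1 are the highest in all 3 panels, and control mouse 2 has the lowest Kupffer sum, 13.3 CPM.

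C1q in ECs was unlike that in monocytes in the proportions of its chains. These proportions, the share of each chain in the C1q UMIs of a cell type, are compared for 1 chain at a time. In ECs, C1qc made up 13.9%, 8.23% and 10.3% of C1q UMIs in control mice, compared with 11.7%, 11.2% and 8.69% in stress mice. In monocytes it made up 32.0%, 31.7% and 29.7% in control mice, compared with 29.3%, 28.0% and 27.5% in stress mice. The ranges did not overlap, and C1qc also made up more of the C1q UMIs in DCs (23.0% to 29.8%) than in ECs. C1qa made up 46.5% to 55.3% in ECs and 36.4% to 39.5% in monocytes.

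**Figure D3:**
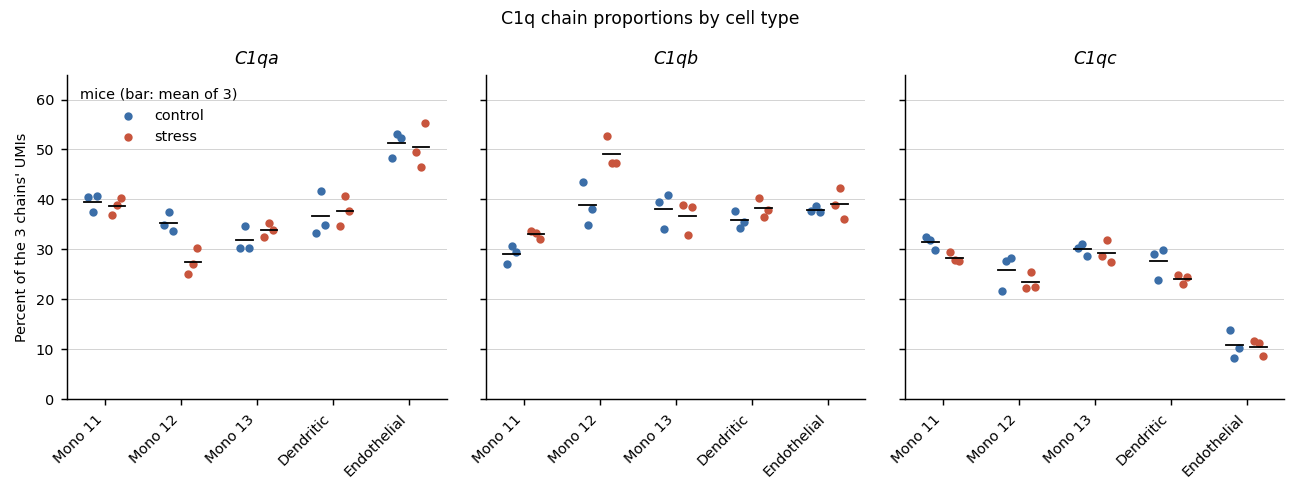
C1qa, C1qb and C1qc UMIs as a percent of all C1q UMIs, by mouse, in the 3 monocyte clusters, DCs and ECs. Each point is a mouse and each bar the mean of 3 mice. C1qc lies between 8.23% and 13.9% in ECs and above 21% in DCs and in each monocyte cluster.

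ECs carried little of the macrophage genes Adgre1 and Csf1r. A C1qa UMI was found in 48.7% of ECs on average (median 4538 UMIs per cell) and in 2.24% of NK/T cells (median 4403 UMIs), which should lack the gene. After thinning to 1000 UMIs these shares were 21.5% and 0.542%. Adgre1 and Csf1r averaged 1.5 and 3.36 CPM in ECs, against 102 and 218 CPM in monocyte cluster 11.

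Clusters of ECs with more than 25% called doublets, and all other called doublets, were then left out, a choice made after the data were seen. C1qa in the remaining 9675 ECs was at 249, 367 and 349 CPM in control mice and at 459, 246 and 311 CPM in stress mice, and C1qc made up 7.67% to 12.7% of C1q UMIs. In these ECs there were 0.26 Adgre1 UMIs and 19.7 C1qc UMIs per 100 C1qa UMIs, against 5.47 and 76.4 in monocyte cluster 11. Lyz2, the lysozyme gene of myeloid cells, was at 3.90 against 248 UMIs per 100 C1qa UMIs. The Kupffer genes were closer, with Clec4f at 1.01 against 2.63, Cd5l at 1.54 against 4.87 and Vsig4, itself a complement receptor, at 1.31 against 2.94 on average. In control mouse 2 and stress mouse 2 all 3 of these genes were higher per C1qa UMI in ECs than in cluster 11, Clec4f for example at 0.729 against 0.252 and at 2.48 against 1.26.

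The EC clusters differed in C1q. Among the clusters with few called doublets, cluster 18 (989 cells) had the highest share of cells with a UMI of all 3 chains. It was 30.5%, against 11.1% in cluster 2, the largest EC cluster, and 4.37% in cluster 15, where the median was only 1212 UMIs per cell. C1qb in cluster 18 was at 411, 410 and 393 CPM in control mice and at 565, 395 and 403 CPM in stress mice. Cluster 16, with 48.6% called doublets, had the lowest mean C1qa, 57.1 CPM. Cluster 24, with 94.8% called doublets, had 460 CPM of C1qa, with C1qc at 21.5% of C1q UMIs and Adgre1 at 33.0 CPM, so it resembled monocytes more than the other EC clusters did.

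**Figure D4:**
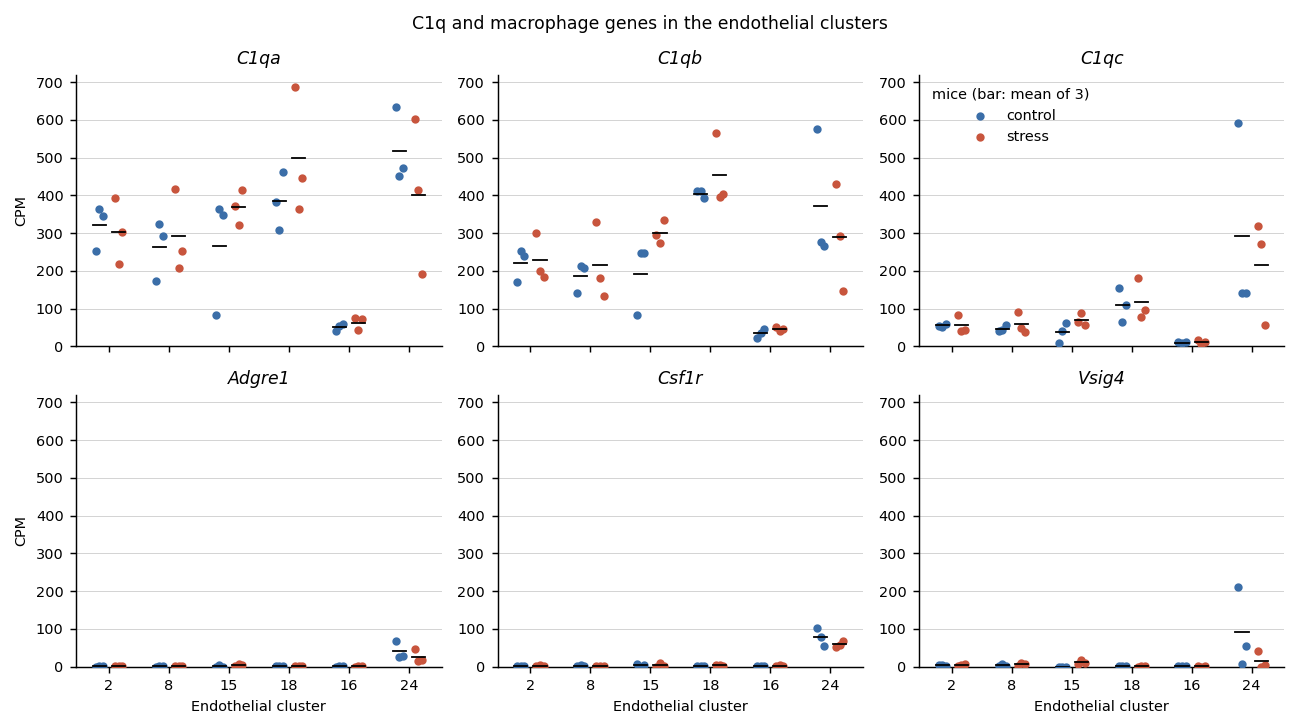
Levels (CPM) of C1qa, C1qb, C1qc and of the macrophage genes Adgre1, Csf1r and Vsig4 in 6 endothelial clusters. Each point is a mouse and each bar the mean of 3 mice. Clusters 16 and 24 had 48.6% and 94.8% called doublets, and only cluster 24 shows Adgre1 and Csf1r clearly above 0 on this axis.

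C3 was carried by myeloid cells and by the HSC label. In inflammatory myeloid cells it was at 60.2, 123 and 117 CPM in control mice and at 116, 148 and 166 CPM in stress mice. In monocytes it was at 50.3, 150 and 90.0 CPM in control mice and at 82.2, 152 and 132 CPM in stress mice. The ranges of these cell types overlapped, and both lay above that of DCs, at 13.5 ± 5.92 CPM (SD, n = 6). Within monocytes, C3 was lower in cluster 13 (18.9 to 70.2 CPM) than in clusters 11 and 12 in each mouse. HSCs had 613, 804 and 506 CPM in control mice, compared with 624, 764 and 898 CPM in stress mice, from as few as 6 cells in a mouse, and were not tested for stress because 2 mice had fewer than 10 cells. Monocytes held 47.9% of all C3 UMIs on average, inflammatory myeloid cells 19.1% and HSCs 18.5%. Neutrophils had 171, 218 and 98.5 CPM in control mice, compared with 223, 279 and 259 CPM in stress mice, from between 4 and 57 cells, and were not tested.

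Cfp, the gene of properdin, was highest in monocytes, at 65.5, 54.6 and 61.1 CPM in control mice and at 79.4, 65.6 and 63.3 CPM in stress mice. DCs came second, at 37.2 ± 10.5 CPM (SD, n = 6), lower in every mouse. As a mean over cells, this turned in control mice 2 and 3 and in stress mouse 3. There DCs had 71.7, 66.5 and 69.3 CPM, against 56.3, 61.6 and 64.0 CPM in monocytes. DCs of cluster 20, which carried the migration receptor Ccr7, had Cfp at 95.9 ± 48.2 CPM, and DCs of cluster 19 had 10.8 ± 1.95 CPM. The order was opposite for C1qa, at 29.6 CPM in cluster 20 and 76.7 CPM in cluster 19, and of the cells of cluster 19 37.1% were called doublets. These clusters were compared after the data were seen.

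The anaphylatoxin receptors were divided between the myeloid types. C3ar1 was carried almost wholly by monocytes, which held between 84.1% and 89.8% of its UMIs in a mouse. It was at 133, 112 and 178 CPM in the monocytes of control mice and at 129, 85.9 and 119 CPM in those of stress mice. The next highest level, in DCs, was 14.8 ± 7.41 CPM (SD, n = 6). C5ar1 was highest in inflammatory myeloid cells, which also carried the neutrophil genes S100a8 and Csf3r at 7496 and 500.3 CPM. It was at 387, 531 and 833 CPM in the inflammatory myeloid cells of control mice and at 432, 458 and 715 CPM in those of stress mice. Monocytes had 158 ± 63.1 CPM, lower in all 6 mice, with means 3.54-fold apart. Neutrophils, which were too few to test for stress, had 64.3, 353 and 317 CPM in control mice, compared with 177, 236 and 304 CPM in stress mice, from between 4 and 57 cells per mouse. C5ar1 averaged 63.8 CPM in M-MDSCs. A C5ar1 UMI was found in 56.5% of inflammatory myeloid cells, with a median of only 1547 UMIs per cell, and in 49.1% of monocytes (median 5291 UMIs). After thinning to 1000 UMIs, these shares were 45.1% and 15.6%. In NK/T cells, which served as a type that should lack it, the thinned share was 0.211%.

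Serping1 transcripts were concentrated in the cells labelled HSCs. They had 473, 460 and 752 CPM in control mice, compared with 881, 576 and 836 CPM in stress mice. A Serping1 UMI was found in 91.0% of HSCs on average (median 13592 UMIs) and in 0.0981% of NK/T cells (median 4403 UMIs). HSCs held 67.9% of all Serping1 UMIs of a mouse on average. The next highest level was 2.47 ± 1.52 CPM (SD, n = 6), in ECs. C3ar1 and Cfp had 0 UMIs in the HSCs of every mouse.

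The same 128 cells carried C1s1, C1ra, C4b and C2 of the classical pathway, which was seen after the data were examined and was not tested. C1s1, the protease in the C1 complex that cleaves C4 and C2, was at 213, 129 and 194 CPM in HSCs of control mice and at 198, 316 and 528 CPM in those of stress mice, from 690 UMIs in all. C1ra, the protease that activates it, averaged 88.1 CPM, C4b 66.4 CPM and C2 40.0 CPM. Of the related genes C1rb, C1s2 and C4a there were 2, 1 and 0 UMIs. Control mice 2 and 3, with 6 and 8 HSCs, were also the mice with the highest Krt18 in these cells (1049 and 921 CPM), a keratin of the tumor cells, and its part in these levels was not tested. Both protease genes were higher in HSCs than in any cell type tested for stress, whereas the C1q chains were highest in monocytes.

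Genes with the pattern most like that of each member were ranked by Pearson's r of log2(CPM + 1) over 48 sums, from 6 mice and 8 cell types. These sums share libraries, so r is a description. Among genes other than the members, C1qa was nearest to the scavenger receptor gene Msr1 (0.96), Cd302 (0.93), Flrt2 (0.93), Mertk (0.92), which clears dying cells, and Plcb1 (0.92). Its r with C1qb was 0.95 and with C1qc 0.96. C3 was nearest to Klra2 (0.96), Itgam (0.96), the alpha chain of complement receptor CR3, and Fcgr3 (0.95). C3ar1 was nearest to Arg1 (0.94), Clec4a1 (0.93) and Pid1 (0.92), and C5ar1 to Arg2 (0.98), Cxcl2 (0.98) and Trem1 (0.97). Cfp was nearest to Irf5 (0.92), a transcription factor of myeloid cells, and to Pla2g4a (0.92). Serping1 had no close neighbour, and its highest r was 0.71, with Slc39a1.

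Stress was compared with control on UMIs summed per mouse and cell type, with edgeR's quasi-likelihood test and an adjusted p of 0.05 over all genes tested. The p-values set the difference between the groups against the spread between these mice. In monocytes 0 of the 7 members that passed the filter on low counts were called, with 0.122% of all 12251 genes called, 1470 genes with an unadjusted p under 0.05, and DESeq2 calling 180 genes. With the replicate number of the titles as a block, 205 genes and 0 members were called in monocytes. Their median log2 fold change was 0.04, beside -0.01 over all genes tested.

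For the C1q chains in monocytes the log2 fold change, stress over control, was 0.04 for C1qa (SE 0.29, adjusted p = 0.970), 0.26 for C1qb (SE 0.30, adjusted p = 0.752) and -0.06 for C1qc (SE 0.33, adjusted p = 0.956). It was 0.38 for C3 (SE 0.38, adjusted p = 0.698) and 0.25 for Cfp (SE 0.15, adjusted p = 0.539). For the receptors it was -0.29 for C3ar1 (SE 0.24, adjusted p = 0.651) and -0.35 for C5ar1 (SE 0.39, adjusted p = 0.735). With SEs between 0.15 and 0.39, changes of that size could not be told from 0. The same held for changes larger than their SE, such as that of Cfp, so moderate changes are not excluded. The sign for C1qa, C1qb, C1qc and C5ar1 depended on which mouse was left out. Serping1 did not pass the filter, with 1 to 3 UMIs in the monocytes of a control mouse and 13 to 19 in those of a stress mouse.

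The share of cluster 11 among monocytes was 25.5%, 51.7% and 18.3% in control mice, compared with 41.6%, 41.5% and 38.7% in stress mice, and did not differ beyond its spread (two-sided exact permutation test, p = 0.4, where 0.1 is the smallest possible). The share of cluster 13 was 57.6%, 23.1% and 51.5% in control mice, compared with 38.1%, 12.1% and 31.0% in stress mice (exact permutation p = 0.3, adjusted over the 3 clusters 0.4). With the clusters weighted equally in every mouse, the log2 ratio of C1qa, stress over control, was -0.47 instead of -0.01 over all monocytes, and that of Cfp was -0.04 instead of 0.20.

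Within clusters, the log2 fold changes of C1q were below 0 in cluster 11, above 0 in cluster 13 and of mixed sign in cluster 12, and no member passed in any of them. In cluster 11, 0 of 7 members were called, with 0.102% of all genes called (1232 with an unadjusted p under 0.05, and 125 by DESeq2), and the log2 fold change was -0.47 for C1qa (SE 0.36, adjusted p = 0.653), -0.20 for C1qb (SE 0.35, adjusted p = 0.885) and -0.54 for C1qc (SE 0.37, adjusted p = 0.617). In cluster 12, 0 of 7 were called, with 0.218% of all genes called (1128 at an unadjusted p under 0.05, 103 by DESeq2), and the log2 fold change was -0.53 for C1qa (SE 0.45), 0.13 for C1qb (SE 0.51) and -0.27 for C1qc (SE 0.38), with adjusted p between 0.659 and 0.953. In cluster 13, 0 of 7 were called, with 0.0984% of all genes called (795 at an unadjusted p under 0.05, 82 by DESeq2), and 2 members were at an unadjusted p under 0.05. With the replicate block 144 genes and 0 members were called, and 1446 genes and 4 members were at an unadjusted p under 0.05. Without the block, the log2 fold change in cluster 13 was 0.66 for C1qa (SE 0.28, adjusted p = 0.540), 0.53 for C1qb (SE 0.23, adjusted p = 0.552) and 0.54 for C1qc (SE 0.29, adjusted p = 0.654), with control and stress mice overlapping for each chain.

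The difference of the stress effect between clusters was tested as an interaction with the mouse as a block. Cluster 13 minus cluster 11, it was 1.16 on the log2 scale for C1qa (SE 0.49, adjusted p = 1), 0.78 for C1qb (SE 0.43, adjusted p = 1) and 1.14 for C1qc (SE 0.43, adjusted p = 1). For C3ar1, which was -0.54 in cluster 13 (SE 0.27, adjusted p = 0.624) and 0.33 in cluster 12 (SE 0.25, adjusted p = 0.617), it was -0.92, cluster 13 minus cluster 12 (SE 0.24, unadjusted p = 0.0011, adjusted p = 0.454). No member passed in any of these comparisons by edgeR, where 0.00911% of all genes were called for cluster 13 minus 11 and 0% for 12 minus 11 and for 13 minus 12.

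**Figure D5:**
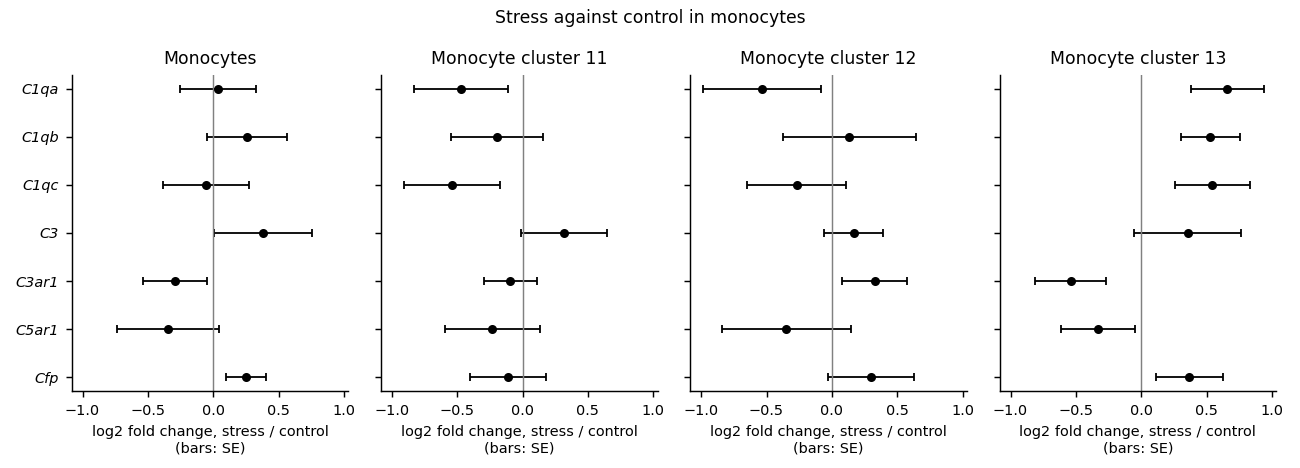
Log2 fold change, stress over control, of the 7 members tested in all monocytes and in clusters 11, 12 and 13, with its SE (bars), from edgeR on sums of 3 control and 3 stress mice. C1qa lies at -0.47 in cluster 11 and at 0.66 in cluster 13, and 0 members passed the threshold in any panel.

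In monocytes the share of C1qb in the C1q UMIs did not overlap between the groups. It was 28.7%, 30.9% and 30.7% in control mice, compared with 34.3%, 33.7% and 33.2% in stress mice, and C1qc was lower in all stress mice than in all control mice. The same non-overlap of C1qb was seen in cluster 11 (27.0% to 30.6% against 32.1% to 33.7%) and in cluster 12 (34.9% to 43.4% against 47.3% to 52.7%), where C1qa was also lower in all stress mice. Over the chains of all cell types tested for stress and of the 3 clusters, the groups did not overlap in 10 of 33 shares (30.3%), which are not independent, since the shares of a type sum to a whole. Of these, 4 were of C1qa and C1qb in tumor cells and M-MDSCs, where all chains but C1qb in M-MDSCs were below the mean level in NK/T cells, and they are not read further. The groups overlapped in cluster 13, ECs, NK/T cells, inflammatory myeloid cells and B cells. Cluster 11 held 68360 of the 76287 C1q UMIs of monocytes, so its proportions and those of all monocytes are largely the same data. In DCs the groups overlapped with all cells, but without called doublets C1qb made up 35.0% to 37.1% in control mice and 39.0% to 47.2% in stress mice. No test was run, and with 3 mice against 3 an exact permutation test cannot give a p below 0.1. The Cell Ranger version moved with the groups and cannot be told apart from stress.

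In ECs 0 of 8 members were called, with 0.213% of all genes called (2205 at an unadjusted p under 0.05, 425 by DESeq2). The log2 fold change of the C1q chains there was 0.20, 0.26 and 0.25 for C1qa, C1qb and C1qc, with adjusted p between 0.595 and 0.737, and that of Serping1 was 0.84 (SE 0.59, adjusted p = 0.520). In inflammatory myeloid cells 0 of 5 members were called, where edgeR called 0% of all genes, 365 genes were at an unadjusted p under 0.05 and DESeq2 called 6. C5ar1 changed there by 0.05 on the log2 scale (SE 0.56, adjusted p = 0.998) and C3 by 0.66 (SE 0.48, adjusted p = 0.994). In DCs 0 of 7 members were called (2.64% of all genes), in M-MDSCs 0 of 1 (0.561%) and in NK/T cells 0 of 3 (0.857%). No member passed the filter in B cells.

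The call among the members was Serping1 in tumor cells, where 1 of 8 members was called beside 21.4% of all genes. It was at 0.123, 0.0527 and 0.0985 CPM in the tumor cells of control mice and at 0.239, 0.609 and 0.309 CPM in those of stress mice, and the groups did not overlap. The log2 fold change was 1.89 (SE 0.45, adjusted p = 0.0261). These levels rest on 183 UMIs in all, between 8 and 73 per mouse, in cells with a median of 27716 UMIs. The call was lost without control mouse 1 (adjusted p = 0.0507), control mouse 3 (0.0838), stress mouse 2 (0.0810) or stress mouse 3 (0.0551). The 6 fibroblast and stellate genes, among them Col1a1 and Dcn, summed to 1.73, 1.36 and 0.868 CPM in the tumor cells of control mice and to 2.97, 2.37 and 5.15 CPM in those of stress mice, and their part in the result was not tested.

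The other genes of the pathway were taken from a list of 49 that includes the members. In tumor cells 5 of the 34 tested were called, a smaller share than the 21.4% of all genes. All 5 were higher in stress mice, and of all genes called 2258 were higher and 1783 lower. Besides Serping1 these were C2, the protease of the C3 convertase (log2 fold change 0.86, SE 0.19, adjusted p = 0.0194), Colec11, a lectin that starts the lectin pathway (1.69, SE 0.32, adjusted p = 0.0131), Masp2, a protease of that pathway (1.34, SE 0.31, adjusted p = 0.0241), and Cd59b, which blocks the membrane attack complex (1.20, SE 0.34, adjusted p = 0.0420). Each of these 4 calls was lost without control mouse 3, where the adjusted p was 0.0892 for C2, 0.0614 for Colec11, 0.0773 for Masp2 and 0.134 for Cd59b. Those of C2, Masp2 and Cd59b were also lost without control mouse 1 or stress mouse 2, those of C2 and Cd59b without stress mouse 1, and those of Masp2 and Cd59b without stress mouse 3. All were low, with the highest mean in stress mice 2.89 CPM for Masp2. The median log2 fold change of the list was 0.36 in tumor cells and -0.01 over all genes. In ECs 0 of 29 were called, in monocytes 0 of 25, in DCs 0 of 16, in inflammatory myeloid cells 0 of 13, in NK/T cells 0 of 9 and in M-MDSCs 0 of 5.

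Regulators of complement were also high in the summed ECs, and whether the same cells carried C1q was not tested. Cd55, which speeds the decay of the C3 convertases, was at 843 ± 124 CPM (SD, n = 6). Clu was at 279 ± 163 CPM, Cd59a at 92.9 ± 21.0 CPM and Cr1l at 86.5 ± 12.6 CPM. Masp1, a protease of the lectin pathway, was at 113 ± 26.9 CPM, Cd93 at 434 ± 90.4 CPM and the second C5a receptor gene C5ar2 at 96.3 ± 38.4 CPM. The proteases that C1q needs were low in the cell types tested for stress, where C1ra had its highest mean in ECs, 12.5 ± 3.82 CPM, and C1s1 in monocytes, 0.875 ± 0.429 CPM. In monocytes the CR3 genes Itgam and Itgb2 were at 270 ± 91.4 and 221 ± 66.0 CPM and Itgax, a chain of CR4, was at 51.1 ± 31.5 CPM.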

How the data were processed

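The deposited values were raw counts of UMIs, without normalization, and a table gave the cell type and cluster of every annotated cell. Libraries were aligned to mm10, and cells with over 20% mitochondrial UMIs or under 200 genes had been removed by the authors, who also state that doublets were removed with Scrublet. The annotation used for counting is not given in the sources used here. The members and gene lists were chosen with earlier results of these data known.

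For each mouse, counts were summed over a cell type or a monocyte cluster. The sums were tested in R 4.3.3 with edgeR 4.0.16 (TMM after filterByExpr, quasi-likelihood test, Benjamini-Hochberg adjustment over all genes tested, threshold 0.05) where every mouse had at least 10 cells. DESeq2 1.42.0, RLE factors, no filter, the replicate block, leaving out each mouse and leaving out called doublets were alternatives. Scrublet in scanpy 1.11.5, run again on the annotated cells, called 2763 doublets, which were otherwise kept. Thinning drew 1000 UMIs per cell and left out shallower cells. The test was checked on simulated counts with the same dispersion for every gene and only large known changes, so smaller changes were not checked.

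Log2 fold changes are named for all members in monocytes, and elsewhere for called members or where a member was highest, with C1q and C3ar1 in clusters and ECs and Serping1 in ECs added after their values were seen. Pathway genes are named where called or at a mean of at least 50 CPM, those in HSCs, C1ra and C1s1 after their values were seen, and some items are not reported here. Same-numbered mice of the groups deviated together with every r over 0.1 in monocytes and in cluster 13. In the other 8 units tested at least 1 r was not over 0.1. The highest r of these units still lay between 0.17 (M-MDSCs) and 0.67 (inflammatory myeloid cells). All precision is limited by 3 mice per group and by the depth of each library.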

Additional observations from a re-analysis of the deposited data

How the results depend on the processing

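With the replicate number as a block the log2 fold change of C1qa in monocytes was -0.0021, and without called doublets it was -0.13. For C5ar1 in inflammatory myeloid cells it was -0.021 with no filter and -0.21 without called doublets. Leaving out 1 mouse gave ranges across 0 in monocytes for C1qa (-0.32 to 0.22), C1qb (-0.16 to 0.44), C1qc (-0.49 to 0.14) and C5ar1 (-0.68 to 0.074), and for C5ar1 in inflammatory myeloid cells (-0.53 to 0.47). For Serping1 in tumor cells it gave 1.44 to 2.16, and 0 to 1 members called. With no filter, 1 member was called in cluster 11, Serping1 (log2 fold change 4.22, which depends on the prior count), with 1 UMI in the control mice. In that setting 496 of all 21262 genes were called. For C1q in ECs and cluster 12 and for 4 genes in tumor cells the alternatives were repeated after their values were seen. In ECs leaving out 1 mouse gave -0.019 to 0.39 for C1qa, 0.026 to 0.37 for C1qb and -0.094 to 0.42 for C1qc, the lowest for C1qa and C1qc without stress mouse 1. In cluster 12 it gave -0.87 to 0.023 for C1qa, -0.22 to 0.86 for C1qb and -0.51 to 0.11 for C1qc, with DESeq2 at -0.025 for C1qb. In tumor cells it gave 0.75 to 0.94 for C2, 1.52 to 2.01 for Colec11, 1.11 to 1.70 for Masp2 and 0.95 to 1.54 for Cd59b. The calls of these 4 genes held under the alternatives that kept all mice, but each was lost without at least 1 mouse. The other fold changes repeated kept their sign and side of the threshold, but not their size, and tests of a difference between clusters were not repeated. With a mouse left out they ran in monocytes from 0.058 to 0.82 for C3, from -0.45 to -0.051 for C3ar1 and from 0.17 to 0.31 for Cfp. In cluster 11 they ran from -0.84 to -0.28 (C1qa), -0.64 to -0.023 (C1qb) and -1.0 to -0.33 (C1qc), and in cluster 13 from 0.43 to 0.90 (C1qa), 0.36 to 0.65 (C1qb), 0.31 to 0.73 (C1qc) and -0.71 to -0.24 (C3ar1). They ran from 0.065 to 0.52 for C3ar1 in cluster 12, from 0.27 to 0.85 for C3 in inflammatory myeloid cells and from 0.49 to 1.24 for Serping1 in ECs. As a mean over cells, C3 in inflammatory myeloid cells was 158 instead of 122 CPM, C1qa in ECs 311 instead of 240 CPM and C3 in HSCs 852 instead of 701 CPM. For C3 in inflammatory myeloid cells, control mice (135 to 148) then lay below stress mice (171 to 186). As means over cells, other members also did not overlap, in both directions, such as C3ar1 in DCs, which was lower in stress mice. No test was run on these means, and the share over all genes was not counted. Thinning gave the shares of cells with all 3 chains as 40.1% (cluster 11), 1.26% (cluster 12), 3.57% (cluster 13) and 1.0% (ECs). Of all genes, 15 were called in monocytes, against 180 by DESeq2, 214 with no filter, 205 with the replicate block and 3 to 64 with a mouse left out. In tumor cells 4041 were called, and 1191 to 5790 with a mouse left out. In 8 of 10 units at least 1 same-number r was not over 0.1, the lowest r of a unit lying between -0.13 and 0.10, although in cluster 12 every mouse correlated best with its own number. The pairing is not given by the design in any unit, and the block changed no call of a member. The causes were not tested. Depth limits Serping1 outside HSCs, and 3 mice per group limit every comparison.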
